A study of Homo sapiens with 6 samples.

Results

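The 49 genes described here encode the proteasome of human cells, with the proteins that activate it, assemble it or drive its transcription. They were chosen by gene name from the 55401 names in the files, and all 49 were found. Of them, 47 had a mean of 1 TPM (a transcript's share of each library, corrected for its length) or more in at least 1 group and were tested, and the other two, PSMB8 and PSMB9, lay below it. The genes fall into the 14 subunits of the core particle, 3 immunoproteasome subunits, 6 ATPases and 12 other subunits of the regulatory particle, 3 assembly chaperones of that particle, 4 activators, 5 assembly factors of the core particle, and NFE2L1 and DDI2, which control the transcription of proteasome genes.

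The core particle is a barrel of stacked rings. The outer rings are built from alpha subunits, which gate the entry, and the inner rings from beta subunits, 3 of which carry the active sites that cut proteins. The regulatory particle caps the barrel: its non-ATPase subunits recognise and deubiquitinate tagged proteins, and its ATPases unfold them and push them in. Cells that lose proteasome capacity are known to raise proteasome subunits together through NFE2L1, also called NRF1, a factor of the endoplasmic reticulum that is freed by the protease DDI2. HSP70 chaperones act upstream in the same system, holding unfolded proteins for refolding or for degradation.

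RNA sequencing was done on 6 libraries, 2 in each of 3 groups. RMS13-R cells, derived from RMS13 and resistant to MAL3-101, were given 10 µM MAL3-101 for 9 h (resistant MAL3-101). Parental RMS13 cells, a human rhabdomyosarcoma line, were given the same dose for the same time (parental MAL3-101) or the vehicle DMSO for 9 h (parental DMSO). MAL3-101 is a small-molecule inhibitor of HSP70, and every group was grown in the same serum-containing medium. No library of RMS13-R without MAL3-101 was analysed here, so the resistant line and its response to the drug cannot be told apart, and the labels do not say whether the line is 1 clone. They also do not state that libraries A and B came from separate cultures, so each p-value measures the spread between libraries, which may be technical. In bulk RNA, fewer transcripts per cell and fewer cells that make them cannot be told apart.

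The TPM values of every library summed to 1000000, and 13918 to 14334 genes reached 1 TPM. The read depth behind these values is unknown, as TPM does not keep it. The muscle-lineage markers MYOD1, MYOG and DES were high, MYF5 and MYF6 were at most 0.05 TPM, and the 8 markers summed to 2074 to 2096 TPM in resistant MAL3-101, 2159.4 to 2165.5 TPM in parental MAL3-101 and 2234 to 2373 TPM in parental DMSO. Single markers moved in opposite directions within those sums. In resistant MAL3-101 against parental DMSO, CHRNA1 was lower (52.1 and 49.9 TPM in resistant MAL3-101, against 285 and 337 TPM in parental DMSO; -2.58, SE 0.08, adjusted p = 2.5e-06), as was MYOD1 (-0.74, SE 0.04, adjusted p = 1.9e-05). MYOG (0.73, SE 0.19, adjusted p = 0.016), DES (0.37, SE 0.07, adjusted p = 0.0044) and TMEM8C (0.80, SE 0.20, adjusted p = 0.014) were higher. MYOG had 669 and 688 TPM in resistant MAL3-101, against 522 and 320 TPM in parental DMSO, which lay far apart. TMEM8C was low throughout, at 3.35 and 2.28 TPM in resistant MAL3-101 and 1.49 and 0.88 TPM in parental DMSO. Their part in the proteasome results was not tested. Immune markers summed to at most 2.3 TPM and epithelial markers to at most 6.13 TPM in any library. The DMSO libraries lay furthest apart. Their median absolute gap over the tested proteasome genes was 0.109 on the log2 scale, against 0.024 between the resistant and 0.039 between the parental MAL3-101 libraries, and 33 of the 47 genes were higher in DMSO library B than in A.

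The promoters are shown because NFE2L1 binds antioxidant response elements, and many of these genes moved together. The letters TGACNNNGC of that element were searched on both strands in the 250 bases upstream of the RefSeq start (GRCh38.p14). They occurred in 12 of 43 proteasome genes with a promoter entry (27.9%), against 3013 of all 27305 promoters (11%). Among core particle genes 1 of 10 held a match, and among regulatory particle genes 3 of 17. The CCAAT box was found in 19 of 43 (44.2%, against 33% of all promoters), the GC box GGGCGG in 29 of 43 (67.4%, against 42.3%), and the heat shock element letters GAANNTTC in 0 of 43 (5.85% of all promoters). A match is a description, not a binding site or a cause, and no match says only that the letters are not in this window. The 6 windows below surround the matches in 5 genes whose windows touch no annotated exon. PSMB9 also meets this condition and is not shown, because it was not tested. Capitals mark the match, each is written 5′ to 3′ on the gene's own strand, and PSMD9 holds a pair of them.
PSMB3, chr17:38752612-38752670, plus strand: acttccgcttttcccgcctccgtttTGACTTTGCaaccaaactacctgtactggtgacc
PSMD12, chr17:67366709-67366767, minus strand: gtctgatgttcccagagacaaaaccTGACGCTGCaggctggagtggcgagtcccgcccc
ADRM1, chr20:62302734-62302792, plus strand: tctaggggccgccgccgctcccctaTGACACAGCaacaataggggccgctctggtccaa
PSME1, chr14:24136083-24136141, plus strand: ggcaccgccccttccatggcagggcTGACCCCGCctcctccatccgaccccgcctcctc
PSMD9 far match, chr12:121888616-121888674, plus strand: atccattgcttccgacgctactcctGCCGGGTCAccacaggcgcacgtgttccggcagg
PSMD9 near match, chr12:121888663-121888721, plus strand: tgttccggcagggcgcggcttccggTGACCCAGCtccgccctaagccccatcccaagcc
PSMB3 is a structural beta subunit, PSMD12 a lid subunit, ADRM1 a ubiquitin receptor, PSME1 an activator and PSMD9 an assembly chaperone. The values below show that these 5 genes did not share a pattern: PSMB3 fell in parental MAL3-101 against DMSO, PSME1 rose, and ADRM1, PSMD9 and PSMD12 did not pass the test there.

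The first comparison set parental MAL3-101 against parental DMSO and asked what HSP70 inhibition did to proteasome transcripts. Of the 47 tested genes, 2 rose, 29 fell and 16 did not pass the test, with a median log2 fold change of -0.26 (range -0.55 to 0.30), against a median of 0.02 over all 15148 tested genes. Over all of those genes, 22.6% were called higher and 18.2% lower. All 14 core particle genes fell, as did 10 of the 18 regulatory particle genes. The spread is shared by the 3 groups, and the DMSO libraries lay furthest apart. With only the libraries compared, 2 of the 47 genes rose and 25 fell. Over all genes that fit gave 2698 higher and 2094 lower, in place of 3429 and 2752. Fold changes here and below are on the log2(TPM + 1) scale, with the standard error (SE) and the Benjamini-Hochberg adjusted p of limma's moderated test, and 0.05 is the threshold. The plot of log2 fold changes by gene shows the spread within each class.

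**Figure D1:**
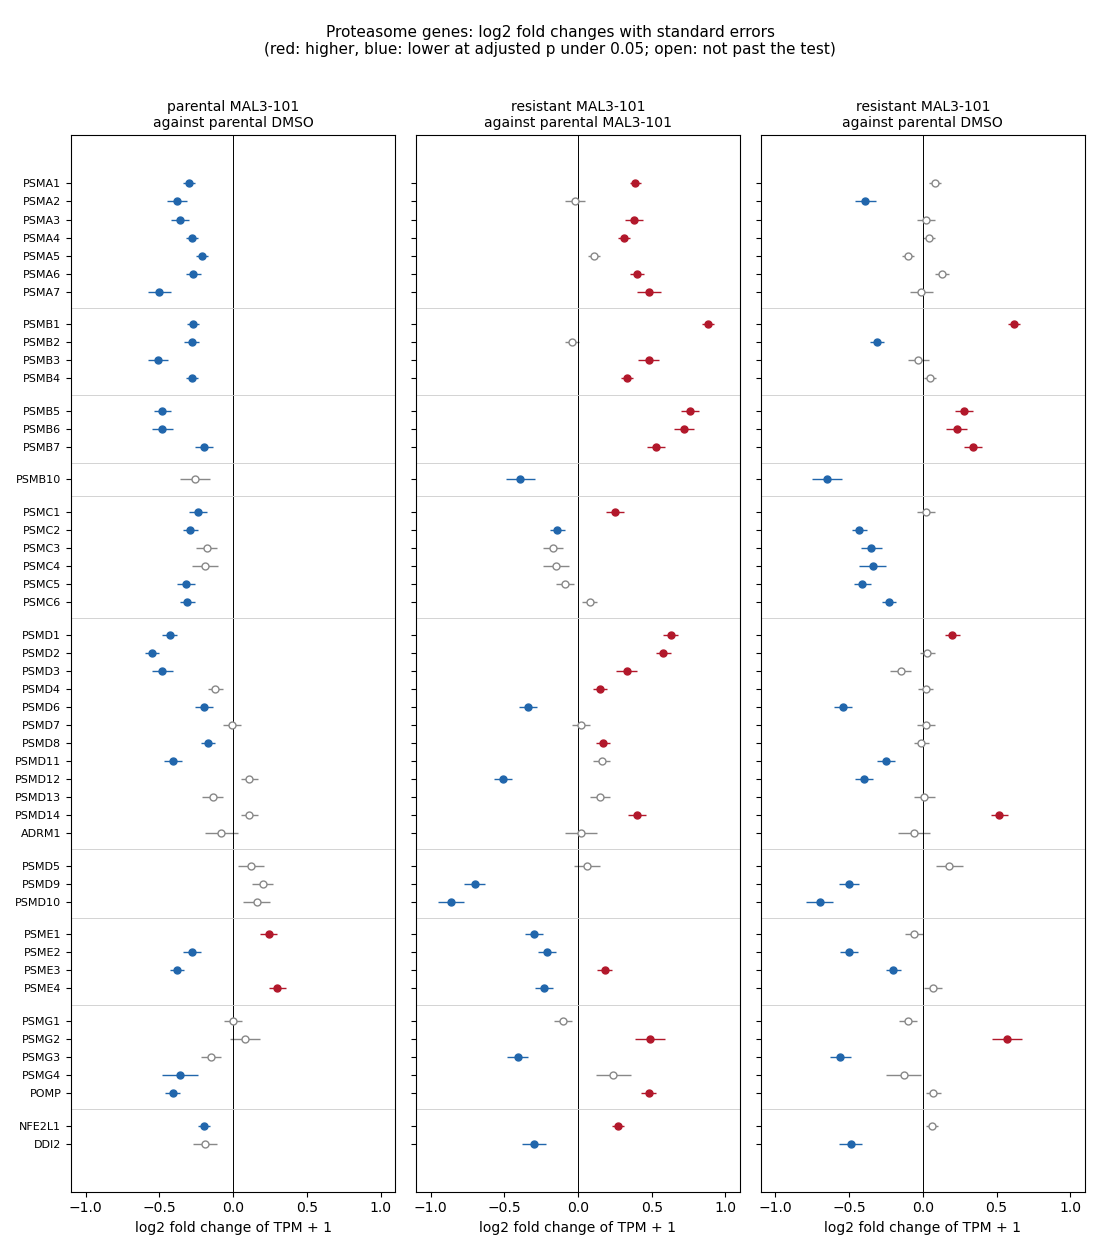
Each point is the log2 fold change of TPM + 1 of 1 tested proteasome gene, with its standard error as a bar, in the 3 comparisons; genes run down the page by class. In parental MAL3-101 against parental DMSO all 14 core genes lie between -0.51 and -0.20, and in resistant against parental MAL3-101 they lie between -0.04 and 0.88.

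The 3 catalytic subunits all fell. PSMB5, which carries the chymotrypsin-like site and is the main target of proteasome inhibitor drugs, had 178 and 191 TPM in parental MAL3-101, against 249 and 268 TPM in parental DMSO (log2 fold change -0.48, SE 0.06, adjusted p = 0.00085). PSMB6, with the caspase-like site, had 125 and 128 TPM in parental MAL3-101, against 166 and 189 TPM in parental DMSO (-0.48, SE 0.07, adjusted p = 0.0015). PSMB7, with the trypsin-like site, had 371 and 364 TPM in parental MAL3-101, against 398 and 446 TPM in parental DMSO (-0.20, SE 0.06, adjusted p = 0.035). In all 3, both parental MAL3-101 libraries lay below both DMSO libraries, as they did for 32.3% of all tested genes. PSMB7 was the least firm of them, since its call was lost without any 1 of the parental MAL3-101 or resistant libraries (adjusted p 0.079 to 0.17).

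In the alpha ring, 7 of 7 genes fell, with a median of -0.30. PSMA7, the most abundant core transcript in every library, had 782 and 782 TPM in parental MAL3-101, against 1005 and 1217 TPM in parental DMSO (-0.50, SE 0.08, adjusted p = 0.0035). PSMA2 had 218 and 199 TPM in parental MAL3-101, against 287 and 256 TPM in parental DMSO (-0.38, SE 0.07, adjusted p = 0.0052). Its exons overlap those of MRPL32 on the other strand, a gene at 50.7 to 76.8 TPM, and reads of such a pair cannot be told apart without strand. All 4 structural beta subunits fell too. PSMB3 had 171 and 164 TPM in parental MAL3-101, against 221 and 258 TPM in parental DMSO (-0.51, SE 0.07, adjusted p = 0.002), and PSMB4 had 261 and 262 TPM in parental MAL3-101, against 312 and 324 TPM in parental DMSO (-0.28, SE 0.04, adjusted p = 0.0023). Of the core genes, the calls of PSMA5 and PSMB7 were lost without parental MAL3-101 library A, and those of PSMA2, PSMA5, PSMA6 and PSMB7 without library B.

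Summed over its 14 genes, the core particle stood at 3436 and 3409 TPM in parental MAL3-101, against 4246 and 4569 TPM in parental DMSO, a log2 ratio of the mean sums of -0.36. The sum is given as a description and was not tested. The plot of summed levels by class shows that the alpha ring, the structural beta subunits and the catalytic subunits moved by much the same share: 75.7% to 80% of the DMSO mean in each of the parental MAL3-101 libraries.

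**Figure D2:**
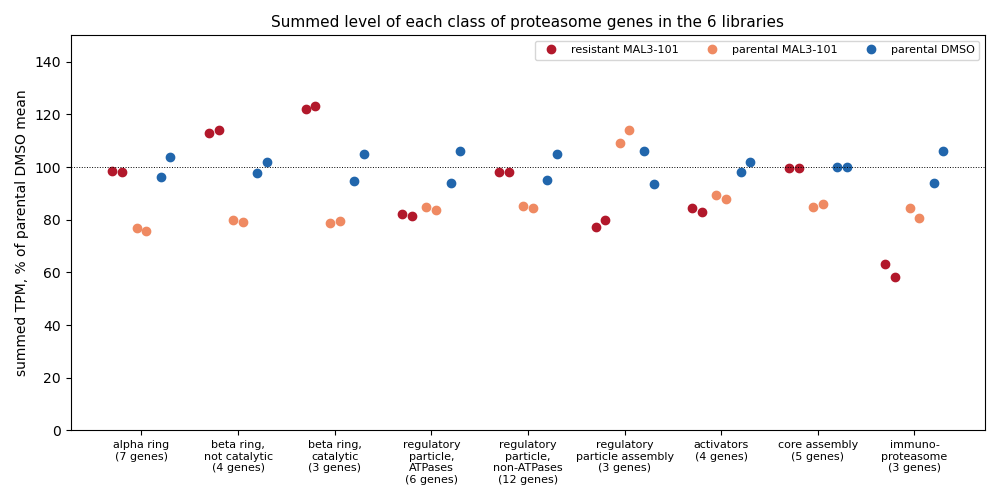
Summed TPM of each class of proteasome genes as a percent of the mean of the parental DMSO libraries; each point is 1 library, with resistant MAL3-101, parental MAL3-101 and parental DMSO from left to right in each class. The catalytic subunits stand at 122% and 123% in resistant MAL3-101 and the ATPases at 82.1% and 81.3%, while both classes lie between 78.6% and 85% in parental MAL3-101.

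The regulatory particle moved less evenly. Of its 6 ATPases, which form the unfolding ring, 4 fell and 2 did not pass the test (median -0.26). PSMC5 had 130.3 and 129.9 TPM in parental MAL3-101, against 154 and 172 TPM in parental DMSO (-0.32, SE 0.06, adjusted p = 0.0066), and PSMC6 had 110.0 and 105 TPM in parental MAL3-101, against 130.4 and 136 TPM in parental DMSO (-0.31, SE 0.05, adjusted p = 0.0033). The PSMC5 call was lost without either parental MAL3-101 library (adjusted p 0.051 and 0.052), and PSMC5 overlaps FTSJ3 on the other strand, a gene at 31.2 to 50.5 TPM. Of the 12 non-ATPase subunits, 6 fell and 6 did not pass the test (median -0.16). PSMD2, the scaffold of the base that docks shuttle proteins, had 251 and 237 TPM in parental MAL3-101, against 344 and 372 TPM in parental DMSO (-0.55, SE 0.05, adjusted p = 0.00043). PSMD3, a lid subunit, had 151 and 152 TPM in parental MAL3-101, against 198 and 227 TPM in parental DMSO (-0.48, SE 0.07, adjusted p = 0.0016).

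Without either parental MAL3-101 library, the calls of PSMC1, PSMC5, PSMD6 and PSMD8 were lost. The genes not past the test included the ubiquitin receptors PSMD4 and ADRM1 and the deubiquitinase PSMD14. PSMD4 had 162 and 170.4 TPM in parental MAL3-101, against 182 and 179.5 TPM in parental DMSO (-0.12, SE 0.05, adjusted p = 0.068). ADRM1 had 371 and 370.1 TPM in parental MAL3-101, against 345 and 445 TPM in parental DMSO, the widest gap of any proteasome gene between replicates. Without DMSO library B its log2 fold change turned round, at 0.10 in place of -0.08. PSMD14, which removes ubiquitin chains as substrates enter, had 112 and 108 TPM in parental MAL3-101, against 96.9 and 107 TPM in parental DMSO (0.11, SE 0.06, adjusted p = 0.17).

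The 4 activators split. PSME1 and PSME2 encode the subunits of the interferon-inducible PA28 cap. PSME1 rose, with 57.1 and 58.8 TPM in parental MAL3-101, against 50.3 and 47.7 TPM in parental DMSO (0.24, SE 0.06, adjusted p = 0.013). Its partner PSME2 fell, with 166 and 158 TPM in parental MAL3-101, against 190.3 and 204 TPM in parental DMSO (-0.28, SE 0.06, adjusted p = 0.0078). PSME3, the nuclear PA28 gamma, fell, with 152 and 148 TPM in parental MAL3-101, against 190.2 and 200.3 TPM in parental DMSO (-0.38, SE 0.05, adjusted p = 0.0012). PSME4, the large cap PA200, rose, with 76.3 and 77.0 TPM in parental MAL3-101, against 64.2 and 60.0 TPM in parental DMSO (0.30, SE 0.06, adjusted p = 0.007). The ratio of PSME3 to PSME4 was 1.99 and 1.93 in parental MAL3-101, against 2.97 and 3.34 in parental DMSO.

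Both rises were small and lost their calls without either parental MAL3-101 library (adjusted p 0.067 and 0.097 for PSME1, 0.053 and 0.057 for PSME4), and the PSME2 fall without library B (0.07). All 4 activators overlap an exon of an expressed gene on the other strand: PSME1 that of EMC9 (58.8 to 126.9 TPM), PSME2 that of RNF31, PSME3 that of BECN1 and PSME4 that of ACYP2. The part of those genes in the values was not tested.

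Of the 5 assembly factors of the core particle, 0 rose, 2 fell and 3 did not pass. POMP, the chaperone that joins the rings of the core and is consumed as the core matures, fell, with 157 and 154 TPM in parental MAL3-101, against 201 and 214 TPM in parental DMSO (-0.41, SE 0.05, adjusted p = 0.00084). PSMG4, an alpha-ring chaperone, had 6.95 and 8.27 TPM in parental MAL3-101, against 10.6 and 9.48 TPM in parental DMSO (-0.36, SE 0.12, adjusted p = 0.043), a call lost in 5 of the 6 fits that left out 1 library. PSMG4 overlaps TUBB2B on the other strand, a gene at 26.8 to 46.3 TPM. The 3 chaperones of the regulatory particle, PSMD5, PSMD9 and PSMD10, did not pass the test, and each lay above 0 (0.12 to 0.20).

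NFE2L1 itself fell slightly, with 129 and 129 TPM in parental MAL3-101, against 147 and 150.2 TPM in parental DMSO (-0.20, SE 0.04, adjusted p = 0.0092). That call was lost without either parental MAL3-101 library (adjusted p 0.071 and 0.064). DDI2 had 15.9 and 15.0 TPM in parental MAL3-101, against 17.3 and 18.1 TPM in parental DMSO (-0.19, SE 0.08, adjusted p = 0.1), and it shares exon sequence on the same strand with RSC1A1, a gene at 4.64 to 8.85 TPM. Of 14 genes that process NFE2L1 or share its binding partners, 7 rose, 3 fell and 4 did not pass the test, with a median of 0.25 against 0.02 over all genes.

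NFE2L2, the related factor NRF2 of the oxidative stress response, had 114 and 106 TPM in parental MAL3-101, against 37.4 and 37.4 TPM in parental DMSO (1.53, SE 0.06, adjusted p = 6.9e-06). MAFF, a small Maf partner of both factors, had 37.9 and 32.8 TPM in parental MAL3-101, against 4.09 and 5.72 TPM in parental DMSO (2.63, SE 0.15, adjusted p = 4.8e-05). SEL1L, part of the ligase that removes proteins from the endoplasmic reticulum, had 53.3 and 50.4 TPM in parental MAL3-101, against 21.9 and 20.4 TPM in parental DMSO (1.26, SE 0.07, adjusted p = 4.5e-05). KEAP1, which holds NFE2L2 for degradation, fell (-0.46, SE 0.05, adjusted p = 0.00071).

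Of 21 listed proteins that bind or modify the proteasome, 18 were tested. Of these, 4 rose (22.2%), 2 fell (11.1%) and 12 did not pass (median -0.00). Over all tested genes the shares were 22.6% and 18.2%. ZFAND2A, an arsenite-inducible proteasome-binding protein, stood far above the rest: 86.7 and 78.8 TPM in parental MAL3-101, against 8.70 and 11.9 TPM in parental DMSO (2.90, SE 0.13, adjusted p = 1.9e-05). AKIRIN2, which brings proteasomes into the nucleus, had 106 and 106 TPM in parental MAL3-101, against 66.8 and 61.6 TPM in parental DMSO (0.72, SE 0.06, adjusted p = 0.00019). UBLCP1, a phosphatase of nuclear proteasomes, had 30.9 and 31.8 TPM in parental MAL3-101, against 21.8 and 22.5 TPM in parental DMSO (0.48, SE 0.06, adjusted p = 0.0012). These 3 rose in the same libraries in which all 14 core genes fell.

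The second comparison set resistant MAL3-101 against parental MAL3-101, both lines under the same drug. It shares the parental MAL3-101 libraries with the first, so a gene that was low in those libraries by chance would be lower in the first and higher in the second. Of the 47 genes, 22 were higher, 11 lower and 14 not past the test, with a median of 0.15 (range -0.86 to 0.88), against -0.10 over all genes. Over all tested genes, 21.3% were called higher and 34.8% lower. Scaling by median ratio or by upper quartile moved the median of all genes by about that amount, to -0.01 and 0.01, and gave 27 higher and 6 lower proteasome genes under both. Over all genes the same scalings gave 4185 higher and 4388 lower, and 4333 higher and 4237 lower, in place of 3228 and 5267.

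Of the 14 core genes, 11 were higher, 0 lower and 3 not past the test, with a median of 0.39. PSMB1, a structural beta subunit, had 476 and 487 TPM in resistant MAL3-101, against 261 and 261 TPM in parental MAL3-101 (0.88, SE 0.04, adjusted p = 8.4e-06). All 3 catalytic subunits were higher. PSMB5 had 313 and 313 TPM in resistant MAL3-101, against 178 and 191 TPM in parental MAL3-101 (0.76, SE 0.06, adjusted p = 4.8e-05). PSMB6 had 211 and 207 TPM in resistant MAL3-101, against 125 and 128 TPM in parental MAL3-101 (0.72, SE 0.07, adjusted p = 0.00011), and PSMB7 had 527 and 539 TPM in resistant MAL3-101, against 371 and 364 TPM in parental MAL3-101 (0.53, SE 0.06, adjusted p = 0.00029).

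In the alpha ring 5 of 7 were higher. PSMA7 had 1090.1 and 1099 TPM in resistant MAL3-101, against 782 and 782 TPM in parental MAL3-101 (0.48, SE 0.08, adjusted p = 0.0021), and PSMA6 had 266 and 265 TPM in resistant MAL3-101, against 206 and 195 TPM in parental MAL3-101 (0.40, SE 0.05, adjusted p = 0.00047). PSMB3 had 233 and 234 TPM in resistant MAL3-101, against 171 and 164 TPM in parental MAL3-101 (0.48, SE 0.07, adjusted p = 0.0014). The core genes that did not pass were PSMA2 (-0.02), PSMA5 (0.11) and PSMB2 (-0.04). None of the 11 core calls was lost when any 1 of the 6 libraries was left out. The core sum was 4698 and 4705 TPM in resistant MAL3-101, against 3436 and 3409 TPM in parental MAL3-101, a log2 ratio of 0.46 (0.56 and 0.58 under the median ratio and upper quartile scalings).

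**Figure D3:**
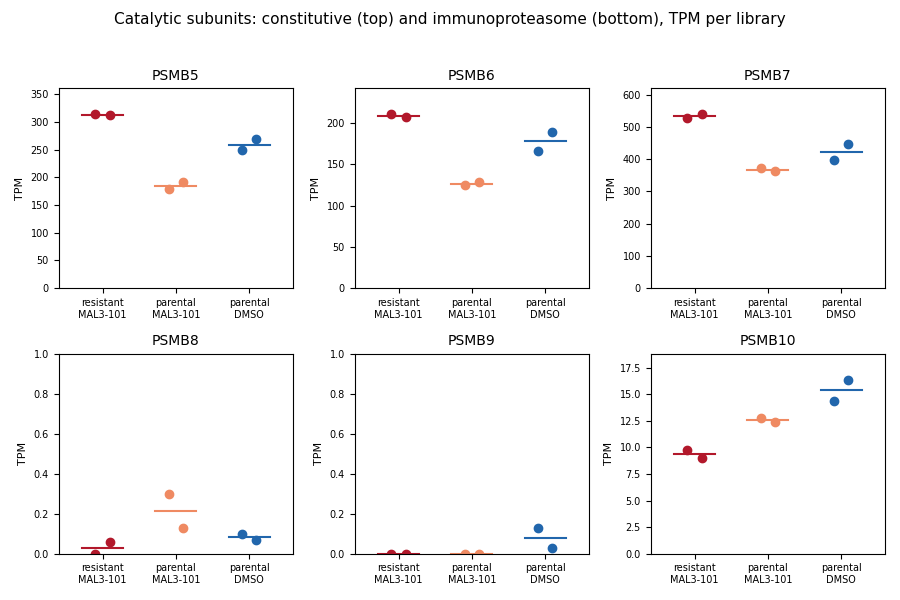
TPM of the constitutive catalytic subunits (PSMB5, PSMB6, PSMB7) and of the immunoproteasome subunits (PSMB8, PSMB9, PSMB10) in the 6 libraries; points are libraries, lines group means, and each panel has its own scale from 0. The constitutive subunits are highest in resistant MAL3-101 and lowest in parental MAL3-101, PSMB8 and PSMB9 stay at or below 0.30 TPM, and PSMB10 is lowest in resistant MAL3-101.

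Of the 6 ATPases, 1 was higher and 1 lower. PSMC1 was higher, with 205 and 203 TPM in resistant MAL3-101, against 173 and 169 TPM in parental MAL3-101 (0.25, SE 0.06, adjusted p = 0.0092). PSMC2 was lower, with 139.6 and 135 TPM in resistant MAL3-101, against 155 and 149 TPM in parental MAL3-101 (-0.14, SE 0.05, adjusted p = 0.036), and the other 4 ATPases did not pass the test. The PSMC2 call was lost under both scalings (-0.04 and -0.02) and without any 1 of the parental or resistant MAL3-101 libraries, and the PSMC1 call was lost without parental library B or either resistant library. Their sums were 990.8 and 980.9 TPM in resistant MAL3-101, against 1025 and 1010 TPM in parental MAL3-101, a log2 ratio of -0.05 that became 0.06 and 0.08 under the scalings. Core transcripts per ATPase transcript stood at 4.74 and 4.8 in resistant MAL3-101, against 3.35 and 3.38 in parental MAL3-101, a ratio within each library that no scaling changes.

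Among the 12 non-ATPase subunits, 6 were higher, 2 lower and 4 not past the test. The base scaffolds led the higher ones: PSMD1 had 203 and 201 TPM in resistant MAL3-101, against 130.3 and 130.5 TPM in parental MAL3-101 (0.63, SE 0.05, adjusted p = 7.7e-05), and PSMD2 had 364 and 367 TPM in resistant MAL3-101, against 251 and 237 TPM in parental MAL3-101 (0.58, SE 0.05, adjusted p = 0.00012). The calls of PSMD4 (0.15) and PSMD8 (0.17) were lost without any 1 of the parental or resistant MAL3-101 libraries. PSMD12 and PSMD6, both of the lid, were lower. PSMD12 had 73.8 and 73.5 TPM in resistant MAL3-101, against 110.5 and 101 TPM in parental MAL3-101 (-0.51, SE 0.06, adjusted p = 3e-04). PSMD6 had 56.2 and 56.7 TPM in resistant MAL3-101, against 70.2 and 73.5 TPM in parental MAL3-101 (-0.34, SE 0.06, adjusted p = 0.0018).

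The chaperones that build the regulatory particle included the genes furthest below parental MAL3-101 of all 47. PSMD10, also known as gankyrin, had 34.7 and 34.7 TPM in resistant MAL3-101, against 62.2 and 65.4 TPM in parental MAL3-101 (-0.86, SE 0.09, adjusted p = 0.00027). PSMD9 had 26.8 and 29.8 TPM in resistant MAL3-101, against 45.5 and 47.8 TPM in parental MAL3-101 (-0.70, SE 0.07, adjusted p = 2e-04). PSMD5, the third of them, did not pass the test, with 45.2 and 45.9 TPM in resistant MAL3-101, against 43.4 and 43.9 TPM in parental MAL3-101. Chaperones of the core were mixed. POMP was higher, with 219 and 216 TPM in resistant MAL3-101, against 157 and 154 TPM in parental MAL3-101 (0.48, SE 0.05, adjusted p = 0.00018). PSMG2, part of the heterodimer that starts the alpha ring, had 28.4 and 30.2 TPM in resistant MAL3-101, against 19.5 and 21.8 TPM in parental MAL3-101 (0.49, SE 0.10, adjusted p = 0.004), while its partner PSMG1 did not pass (-0.10). PSMG3 was lower, with 24.0 and 23.3 TPM in resistant MAL3-101, against 30.9 and 32.4 TPM in parental MAL3-101 (-0.41, SE 0.07, adjusted p = 0.0023).

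**Figure D4:**
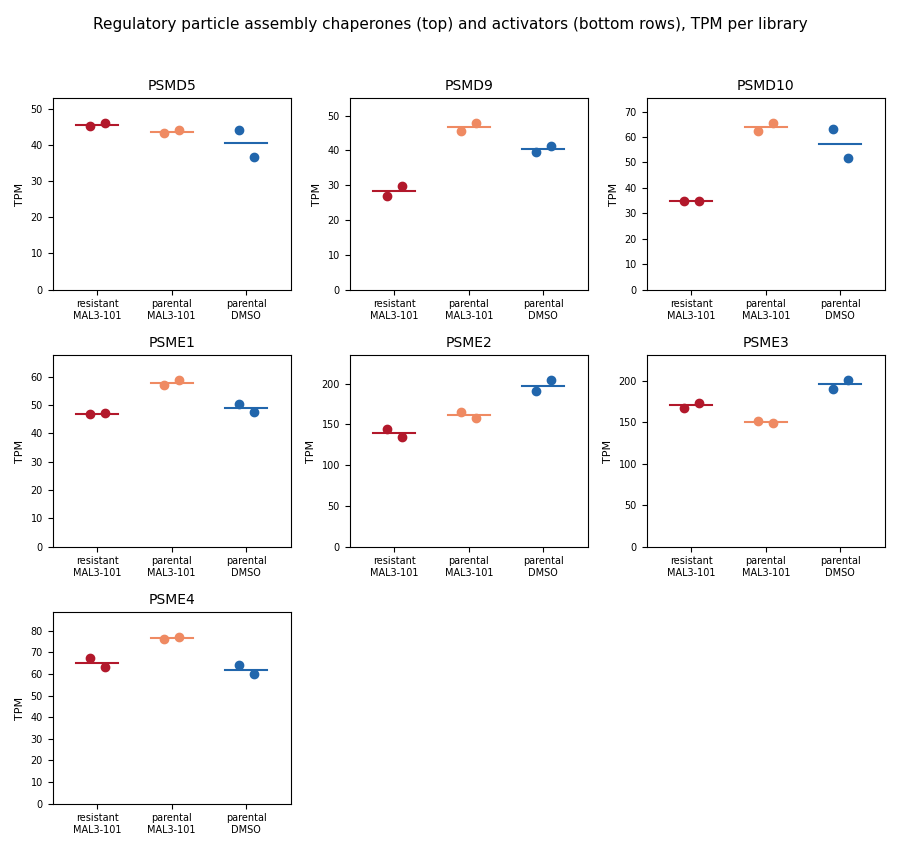
TPM of the regulatory particle assembly chaperones (PSMD5, PSMD9, PSMD10) and the activators (PSME1 to PSME4) in the 6 libraries; points are libraries, lines group means, and each panel has its own scale from 0. PSMD9 and PSMD10 are lowest in resistant MAL3-101, where PSMD10 stands at 34.7 TPM in both libraries, and PSMD5 shows no such gap.

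PSME2 was lower in both of these comparisons, and the other 3 activators had opposite signs in them. PSME1 was lower, with 47.0 and 47.1 TPM in resistant MAL3-101, against 57.1 and 58.8 TPM in parental MAL3-101 (-0.30, SE 0.06, adjusted p = 0.0033). PSME4 was lower (-0.23, SE 0.06, adjusted p = 0.014), PSME3 higher (0.18, SE 0.05, adjusted p = 0.016), and PSME2 lower (-0.21, SE 0.06, adjusted p = 0.017). Only PSME1 of these kept its call in every fit that left out 1 library, and PSME2 and PSME4 also lost theirs under both scalings. NFE2L1 was higher, with 156 and 154 TPM in resistant MAL3-101, against 129 and 129 TPM in parental MAL3-101 (0.27, SE 0.04, adjusted p = 0.0016). DDI2 was lower, with 12.3 and 12.4 TPM in resistant MAL3-101, against 15.9 and 15.0 TPM in parental MAL3-101 (-0.30, SE 0.08, adjusted p = 0.016), a call lost under both scalings and without any 1 of those libraries.

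ZFAND2A, MAFF and NFE2L2, which had risen in parental MAL3-101 against DMSO, were lower in resistant MAL3-101. ZFAND2A had 9.42 and 9.84 TPM in resistant MAL3-101, against 86.7 and 78.8 TPM in parental MAL3-101 (-2.98, SE 0.13, adjusted p = 7.7e-06). MAFF had 3.44 and 3.52 TPM in resistant MAL3-101, against 37.9 and 32.8 TPM in parental MAL3-101 (-3.02, SE 0.15, adjusted p = 1.1e-05), and NFE2L2 had 56.9 and 58.4 TPM in resistant MAL3-101, against 114 and 106 TPM in parental MAL3-101 (-0.92, SE 0.06, adjusted p = 2.4e-05). Of the 14 NFE2L1 processing and partner genes, 4 were higher, 8 lower and 2 not past the test (median -0.24). AKIRIN2, which had also risen in parental MAL3-101 against DMSO, did not pass the test here (0.13). It had 114 and 119 TPM in resistant MAL3-101, against 106 and 106 TPM in parental MAL3-101. It was called higher under the median ratio (0.23) and upper quartile (0.25) scalings, and with only the libraries compared. Of the proteasome-bound proteins 5 were higher, 3 lower and 10 not past the test. UCHL5, the deubiquitinase that ADRM1 recruits, had 19.0 and 17.8 TPM in resistant MAL3-101, against 39.1 and 37.4 TPM in parental MAL3-101 (-1.02, SE 0.07, adjusted p = 3.4e-05). KIAA0368, the proteasome adaptor ECM29, had 167 and 165 TPM in resistant MAL3-101, against 100.4 and 103 TPM in parental MAL3-101 (0.70, SE 0.07, adjusted p = 0.00016).

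The third comparison set resistant MAL3-101 against parental DMSO, so that line and drug both differ, and it shares libraries with each of the others. Of the 47 genes, 7 were higher, 17 lower and 23 not past the test, with a median of -0.03, against -0.06 over all genes. Over all tested genes, 20.9% were called higher and 29.7% lower. The scalings gave 10 higher with 14 and 15 lower. The 3 catalytic subunits were all higher. PSMB7 had 527 and 539 TPM in resistant MAL3-101, against 398 and 446 TPM in parental DMSO (0.34, SE 0.06, adjusted p = 0.0028), and PSMB5 had 313 and 313 TPM in resistant MAL3-101, against 249 and 268 TPM in parental DMSO (0.28, SE 0.06, adjusted p = 0.0054). PSMB6 was nearest to the threshold (0.23, SE 0.07, adjusted p = 0.021), and its call was lost without either resistant library (adjusted p 0.12 and 0.09).

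Of the other core genes, 1 was higher, 2 were lower and 8 did not pass the test. PSMB1 was higher, with 476 and 487 TPM in resistant MAL3-101, against 316 and 312 TPM in parental DMSO (0.62, SE 0.04, adjusted p = 3.9e-05). PSMB2, which sits in the same ring, was lower, with 135 and 129.9 TPM in resistant MAL3-101, against 163 and 167 TPM in parental DMSO (-0.31, SE 0.05, adjusted p = 0.0012). PSMA2 was lower, with 203 and 209 TPM in resistant MAL3-101, against 287 and 256 TPM in parental DMSO (-0.39, SE 0.07, adjusted p = 0.0029). The ratio of PSMB1 to PSMB2 was 3.53 and 3.75 in resistant MAL3-101, 1.91 and 1.92 in parental MAL3-101, and 1.94 and 1.87 in parental DMSO. PSMA7 did not pass the test (-0.01). Without DMSO library B, where it stood at 1217 TPM, its log2 fold change was 0.12, a value that rests on the 1 DMSO library left.

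Of the 6 ATPases 5 were lower, with a median of -0.35. PSMC2 had 139.6 and 135 TPM in resistant MAL3-101, against 182 and 189 TPM in parental DMSO (-0.43, SE 0.05, adjusted p = 0.00034). PSMC5 had 119 and 125 TPM in resistant MAL3-101, against 154 and 172 TPM in parental DMSO (-0.41, SE 0.06, adjusted p = 0.0014). PSMC1 was the one that did not pass, with 205 and 203 TPM in resistant MAL3-101, against 191 and 214 TPM in parental DMSO. Without resistant library B the calls of PSMC4 and PSMC6 were lost (adjusted p 0.098 and 0.076), and that of PSMC4 also without library A (0.1). Core transcripts per ATPase transcript were 4.74 and 4.8 in resistant MAL3-101, against 3.74 and 3.57 in parental DMSO, and core transcripts per non-ATPase transcript were 1.99 in both resistant MAL3-101 libraries, against 1.85 and 1.81 in parental DMSO. Neither ratio overlapped between the groups, which can happen by chance with 2 libraries in each, and neither ratio was tested.

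Among the 12 non-ATPase subunits, 2 were higher (16.7%) and 3 lower (25%), with a median of 0.00. Over all tested genes the shares were 20.9% and 29.7%. PSMD14 had 147 and 145 TPM in resistant MAL3-101, against 96.9 and 107 TPM in parental DMSO (0.52, SE 0.06, adjusted p = 4e-04). PSMD1 was the other higher one (0.20, SE 0.05, adjusted p = 0.016), a call lost without either resistant library. PSMD6 had 56.2 and 56.7 TPM in resistant MAL3-101, against 80.1 and 85.4 TPM in parental DMSO (-0.54, SE 0.06, adjusted p = 0.00025), PSMD12 gave -0.40 (SE 0.06, adjusted p = 0.0012), and PSMD11 gave -0.25 (SE 0.06, adjusted p = 0.013), a call lost without resistant library B (-0.19, adjusted p 0.11). ADRM1 did not pass, and without DMSO library B its value was 0.12 in place of -0.06.

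Assembly factors differed in direction. PSMD10 had 34.7 and 34.7 TPM in resistant MAL3-101, against 63.2 and 51.6 TPM in parental DMSO (-0.70, SE 0.09, adjusted p = 0.00082). PSMD9 had 26.8 and 29.8 TPM in resistant MAL3-101, against 39.5 and 41.2 TPM in parental DMSO (-0.50, SE 0.07, adjusted p = 0.0011). PSMG3 had 24.0 and 23.3 TPM in resistant MAL3-101, against 33.7 and 36.7 TPM in parental DMSO (-0.56, SE 0.07, adjusted p = 0.00065), whereas PSMG2 was higher, with 28.4 and 30.2 TPM in resistant MAL3-101, against 20.9 and 18.1 TPM in parental DMSO (0.57, SE 0.10, adjusted p = 0.0024). PSMG2 overlaps CEP76 and SPIRE1 on the other strand, at 7.05 to 33.9 TPM. Of the activators PSME2 was lower (-0.50, SE 0.06, adjusted p = 0.00043), as was PSME3 (-0.20, SE 0.05, adjusted p = 0.012, lost under both scalings and without either resistant library), while PSME1 (-0.06) and PSME4 (0.07) did not pass. DDI2 was lower (-0.49, SE 0.08, adjusted p = 0.0021), and NFE2L1 did not pass (0.06). Of the 14 NFE2L1 processing and partner genes, 4 were higher, 1 lower and 9 not past the test (median 0.07). NFE2L2 was the highest of them, with 56.9 and 58.4 TPM in resistant MAL3-101, against 37.4 and 37.4 TPM in parental DMSO (0.61, SE 0.06, adjusted p = 0.00016), and BTRC, the ligase receptor that marks nuclear NFE2L1 for degradation, was at 0.47 (SE 0.07, adjusted p = 0.0014). Among proteasome-bound proteins 7 of 18 were higher and 4 lower, with KIAA0368 at 0.88 (SE 0.07), AKIRIN2 at 0.85 (SE 0.06) and UCHL5 at -1.01 (SE 0.07).

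The immunoproteasome replaces the constitutive catalytic subunits with PSMB8, PSMB9 and PSMB10 and makes peptides for class I antigen presentation. PSMB8 was listed at 0 and 0.06 TPM in resistant MAL3-101, 0.30 and 0.13 TPM in parental MAL3-101, and 0.10 and 0.07 TPM in parental DMSO. PSMB9 was listed at 0 in all 4 MAL3-101 libraries and at 0.13 and 0.03 TPM in parental DMSO. PSMB10 had 9.80 and 9.01 TPM in resistant MAL3-101, 12.8 and 12.4 TPM in parental MAL3-101, and 14.4 and 16.4 TPM in parental DMSO. It was lower in resistant MAL3-101 than in parental DMSO (-0.65, SE 0.10, adjusted p = 0.0015) and than in parental MAL3-101 (-0.39, SE 0.10, adjusted p = 0.013). The second of these calls was lost under both scalings and without resistant library B or either parental MAL3-101 library. In parental MAL3-101 against DMSO PSMB10 did not pass the test (-0.26, SE 0.10, adjusted p = 0.069), but it did under upper quartile scaling.

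Together the 3 made up 0.924% and 0.849% of the transcripts of the 6 catalytic genes in resistant MAL3-101, 1.91% and 1.8% in parental MAL3-101, and 1.76% and 1.79% in parental DMSO. Nearly all of this share was PSMB10, and it would be too low if the values of PSMB8 and PSMB9 were failed estimates. The share is also set against PSMB5, PSMB6 and PSMB7, which were higher in resistant MAL3-101. The genes PSMB8, PSMB9 and TAP1 lie in the class II part of the MHC region, and TAP1 was also low, at most 0.86 TPM in any library. An exact 0 in a file without counts can be a failed estimate, and PSMB8 and PSMB9 overlap each other, so no fold change is given. Other genes of the region were not near 0 in these libraries: BAG6 at 144 to 189 TPM and TAP2 at 7.64 to 21.0 TPM.

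The antigen-processing and interferon genes, which share regulators with the immunoproteasome, were mostly lower in resistant MAL3-101, as PSMB10 was. Of the 10 tested of 14 listed, 0 were higher and 10 lower in resistant MAL3-101 against parental DMSO (median -1.01), and 0 were higher and 8 lower against parental MAL3-101 (median -0.95). In parental MAL3-101 against DMSO 1 rose, 5 fell and 4 did not pass. TAPBP, which loads class I molecules with peptide, had 1.20 and 1.47 TPM in resistant MAL3-101, 6.81 and 6.88 TPM in parental MAL3-101, and 11.8 and 12.6 TPM in parental DMSO (-2.50, SE 0.12, adjusted p = 1.2e-05 in resistant MAL3-101 against parental DMSO). ERAP2, a peptide-trimming protease, had 0.09 and 0.08 TPM in resistant MAL3-101, 1.90 and 2.15 TPM in parental MAL3-101, and 3.90 and 3.90 TPM in parental DMSO (-2.18, SE 0.14, adjusted p = 4e-05 in the same comparison). IRF1, an interferon response factor, had 12.1 and 12.7 TPM in resistant MAL3-101, 41.9 and 45.2 TPM in parental MAL3-101, and 26.2 and 31.8 TPM in parental DMSO. It rose in parental MAL3-101 against DMSO (0.58, SE 0.10, adjusted p = 0.0042), where PSMB10 did not pass the test.

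Some of the genes called in resistant MAL3-101 against parental DMSO lay among neighbours called the same way. Over all tested genes in that comparison, 20.9% were called higher and 29.7% lower. For each gene, up to 5 tested genes on either side were taken in RefSeq order. In resistant MAL3-101 against parental DMSO the neighbours of PSMD10 on chromosome X had a median of -0.89, with 0 of 10 higher and 9 lower, those of DDI2 on chromosome 1 a median of -0.69 (0 higher, 8 lower), and those of PSMC5 on chromosome 17 a median of -0.54 (0 higher, 8 lower). Around PSMD14 on chromosome 2 the median was 0.60 (9 higher, 0 lower), and around PSMG2 on chromosome 18 it was 0.46 (6 higher, 1 lower). PSMB1 on chromosome 6 had 7 neighbours, with a median of 0.35 (4 higher, 0 lower). Those of PSMD9 had a median of -0.36 (0 higher, 7 lower), and those of PSMA2 a median of -0.37 (1 higher, 7 lower). Some neighbours share exon positions with the gene itself, so their values may not be separate from it. These were RSC1A1 for DDI2, FTSJ3 for PSMC5, CEP76 and SPIRE1 for PSMG2, WDR66 for PSMD9 and MRPL32 for PSMA2. Other called genes had the opposite sign to the median of their neighbours. PSMB6 and PSMB5 were higher, with neighbours at medians of -0.32 (0 higher, 6 lower) and -0.19 (0 higher, 3 lower). The lower count around PSMB5 was near the share over all genes. PSMD1 was also higher, with neighbours at -0.32 (2 higher, 6 lower). PSME2 and PSMC4 were lower, with neighbours at 0.23 (5 higher, 2 lower) and 0.11 (4 higher, 0 lower). PSMD8 and PSMA5 did not pass the test, though their neighbours had medians of -0.45 (1 higher, 5 lower) and 0.39 (7 higher, 2 lower). The part of chromosome position in these differences was not tested.

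**Figure D5:**
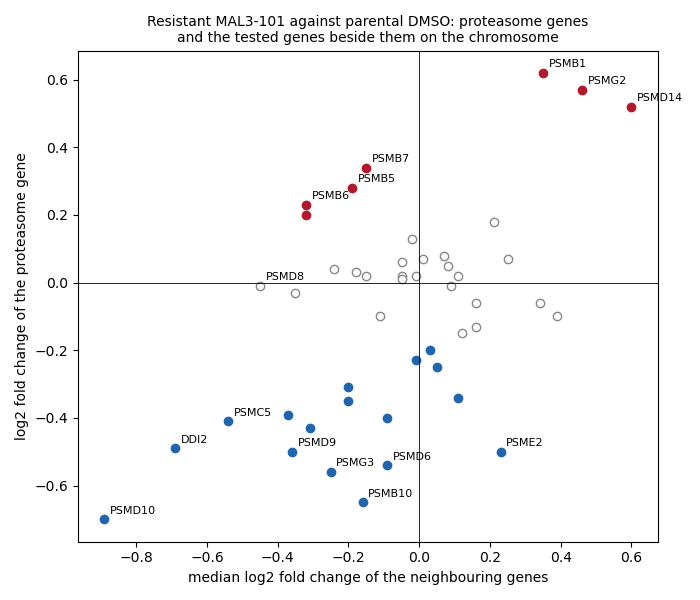
Log2 fold change of each tested proteasome gene in resistant MAL3-101 against parental DMSO (vertical axis) and the median log2 fold change of up to 5 tested genes on each side of it (horizontal axis); red points were called higher, blue points lower, open points neither. PSMD10 (-0.70, neighbours -0.89) and PSMD14 (0.52, neighbours 0.60) lie with their neighbours. PSMB5, PSMB6 and PSMB7 have the opposite sign to the median of theirs, as do other genes such as PSMD1 and PSME2.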

How the data were processed

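The deposited files hold 1 table per library with TPM per gene name, made by the authors. RSEM, DESeq and the build hg19 are named in the submitters' processing notes. Versions, aligner, annotation and strand setting were not given in the sources used here. Grouping followed the descriptions in the labels, since the titles of the DMSO libraries carry the drug's name. The members and gene lists were chosen with earlier results of these data known.

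A gene was tested when any group's mean reached 1 TPM, on log2(TPM + 1), which understates changes of low genes. The fit used limma 3.58.1 (R 4.3.3) on the 6 libraries together, with group means and a trend of variance with level (3 residual and 4.17 prior degrees of freedom, median SE 0.105), with Benjamini-Hochberg adjustment over all 15148 tested genes. The code was tested on simulated data. Exact permutation of 2 against 2 libraries cannot go below p = 0.333 and was not used.

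Named in every case were the catalytic and immunoproteasome subunits, the activators, NFE2L1 and DDI2. Others were the 2 called members of each class with the largest change, called members that moved against most of their class, and up to 3 called genes of each pathway list. A gene named for one comparison may be given in another. The markers, PSMA5, PSMC4, PSMD4, PSMD5, PSMD8, PSMD11, PSMD14, ADRM1, PSMG1, KEAP1 and AKIRIN2, where that rule does not name them, were chosen after their values were seen.

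Alternatives were other pseudocounts, filters and scalings, no trend, a replicate block, only the libraries compared, and each library left out. A library left alone in its group is assumed to vary like the others. The DMSO libraries lay furthest apart, so calls gained without 1 of them rest on the smaller spread of the other groups. Overlaps came from GENCODE release 29 and promoters and gene order from RefSeq (GRCh38.p14); 6 members had no promoter entry. Of 27 pseudogenes matched by name, none exceeded 0.63 TPM. Figures were drawn with matplotlib 3.10.9 in Python 3.11.15.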

Additional observations from a re-analysis of the deposited data

How the results depend on the processing

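Each result was recomputed under 16 alternatives. Of 198 values for counts and class sums, 181 stayed within the spread or within 1.5 times the main value, and 17 moved. With 1 library left out in turn, proteasome genes changed in parental MAL3-101 against DMSO numbered 18 to 38 (main 31), 0 to 5 of them higher and 18 to 34 lower. In resistant MAL3-101 against DMSO 5 to 12 were higher, and in resistant against parental MAL3-101 6 to 15 were lower. Under the median ratio and the upper quartile scaling 6 genes were lower in that last comparison (main 11); the log2 ratio of core sums was 0.56 and 0.58 (main 0.46, and 0.47 without mitochondrial genes), and that of ATPase sums 0.06 and 0.08 (main -0.05). The cause was not tested. Of 4263 values of single genes, 3958 kept their direction and side of the threshold, 203 lost and 98 gained a call, and 4 turned round. Without DMSO library B, ADRM1 turned to 0.10 in parental and 0.12 in resistant MAL3-101 against DMSO (-0.26 and -0.24 without DMSO library A), and PSMA7 to 0.12 in resistant MAL3-101 against DMSO (-0.15 without library A). VCP turned to 0.01 in resistant against parental MAL3-101 under the upper quartile scaling.

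With the replicate letter as a block, 3 genes were higher and 28 lower in parental MAL3-101 against DMSO, 22 and 10 in resistant against parental MAL3-101, and 7 and 17 in resistant MAL3-101 against DMSO. Libraries with the same letter did not deviate together (correlations -0.02, -0.02 and 0.03). These values show no shared shift, but they cannot tell whether the letters mark a shared culture or batch. TPM keeps no depth, so counting error was not separated from the spread between libraries.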
